A study of Mus musculus with 18 samples.

Results

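Conjugating enzymes attach a polar group to drugs, hormones, bile acids and bilirubin so that bile and urine can carry them away. UDP-glucuronosyltransferases (UGTs) add glucuronic acid from UDP-glucuronate, glutathione S-transferases (GSTs and the membrane-bound MGSTs) add glutathione to reactive electrophiles, and sulfotransferases (SULTs) add sulfate from the donor PAPS. The liver holds most of this capacity, many of the genes lie in tandem clusters of close copies, and the nuclear receptors CAR and PXR and the factors NRF2 and AHR are known to control many of them. The members were taken by symbol alone, as genes of the RNA-seq table named Ugt1 to Ugt3, Gsta, Gstk, Gstm, Gsto, Gstp, Gstt, Mgst or Sult with a number. These were 56 of 15572 genes, namely 19 UGTs, 23 GSTs and MGSTs, and 14 SULTs.

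The study asked how JMJD1C, a histone demethylase of H3K9me2, acts on liver genes in feeding. RNA-seq compared livers of refed WT and refed JMJD1C-LKO mice, ATAC-seq of nuclei, which marks accessible DNA, covered fasted and refed WT mice as well as refed JMJD1C-LKO mice, and ChIP-seq for H3K9me2, a mark known for its place in silent chromatin, covered WT mice in both states. Every group held 2 samples. In RNA-seq each sample was a pool of RNA, while ATAC-seq and ChIP-seq used 1 liver a sample.

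All mice were C57BL/6J. WT mice were littermates of JMJD1C-LKO mice, in which Cre under the albumin promoter deletes a floxed Jmjd1c allele. Deletion is thus aimed at hepatocytes, and which other liver cells keep the gene was not examined here. The labels give chow for 6 to 8 weeks, an overnight fast and 6 h of refeeding with a high-carbohydrate diet, in the same words for every sample, whereas the methods give an age of 12 weeks unless stated otherwise and 8 to 16 h of feeding. Whether a liver was fasted or refed was therefore read from the sample titles. Sex is not among the labels.

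RNA-seq libraries held between 51265128 and 54400509 estimated counts. Jmjd1c itself measured 22.0 and 22.8 TMM-normalized CPM (counts scaled to library size) in the WT pools and 20.0 and 20.5 CPM in the libraries labelled JMJD1C-LKO, and the difference did not pass the test (log2 fold change −0.14 ± 0.08 SE, adjusted p = 0.233). Counts over whole transcripts do not show whether the floxed part was missing, so each direction below rests on the labels of these libraries. The 8 hepatocyte markers summed to between 107093 and 118847 CPM, and only Tat was called, higher in LKO. The 7 Kupffer cell and macrophage markers all rose in the LKO libraries, with summed levels of 188 and 190 CPM in WT and 353 and 504 CPM in LKO, and 5 of 6 endothelial markers rose as well, from 96.9 and 97.9 to 131 and 173 CPM, while 2 of 7 lymphocyte markers and none of 5 tested cholangiocyte markers did. Differences in cell content and in RNA per cell cannot be told apart in bulk RNA, and the part of these cells in the results below was not tested. The ATAC-seq lists held 5220 and 7632 summits for fasted WT livers, 5027 and 3119 for refed WT livers, and 1450 and 825 for refed LKO livers. The H3K9me2 lists held 7690 and 13456 summits in the fasted livers, but 1297 and 9929 in the refed ones, so that refed liver 1 stood apart.

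RNA of most sulfotransferases was higher in JMJD1C-LKO liver, and RNA of 4 of 8 tested UGT2 genes, among them the most abundant, Ugt2b5, was lower. Of 12 tested SULT genes 9 were higher and 1 was lower, of 18 tested UGTs 1 was higher and 4 were lower, and of 21 tested GSTs and MGSTs 7 were higher and 2 lower. The families were not tested against each other. Over all members tested, 24 of 51 were called at an adjusted p under 0.05 in edgeR's quasi-likelihood test, 17 higher and 7 lower. Among all 14151 genes tested, 28.0% were called, 14.6% higher and 13.4% lower. The 5 called of 18 tested UGTs were a share near that of all genes. Of the 9 higher SULT genes, Sult2a1, Sult2a2 and Sult2a5 are near-identical, and reads could be split among them. The 2 LKO pools lay both above or both below the 2 WT pools for 37 of the 51 members and for 67.5% of all genes. The median log2 fold change was 0.12 over the members, also with Sult3a1 set at its lower bound, and 0.01 over all genes. The other 5 members, Gsto2, Mgst2, Sult4a1, Sult6b1 and Ugt2a1, were too low to be tested. Leaving out WT pool 1 or WT pool 2 left 15 or 14 members called, with 8.72% or 7.36% of all genes.

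**Figure D1:**
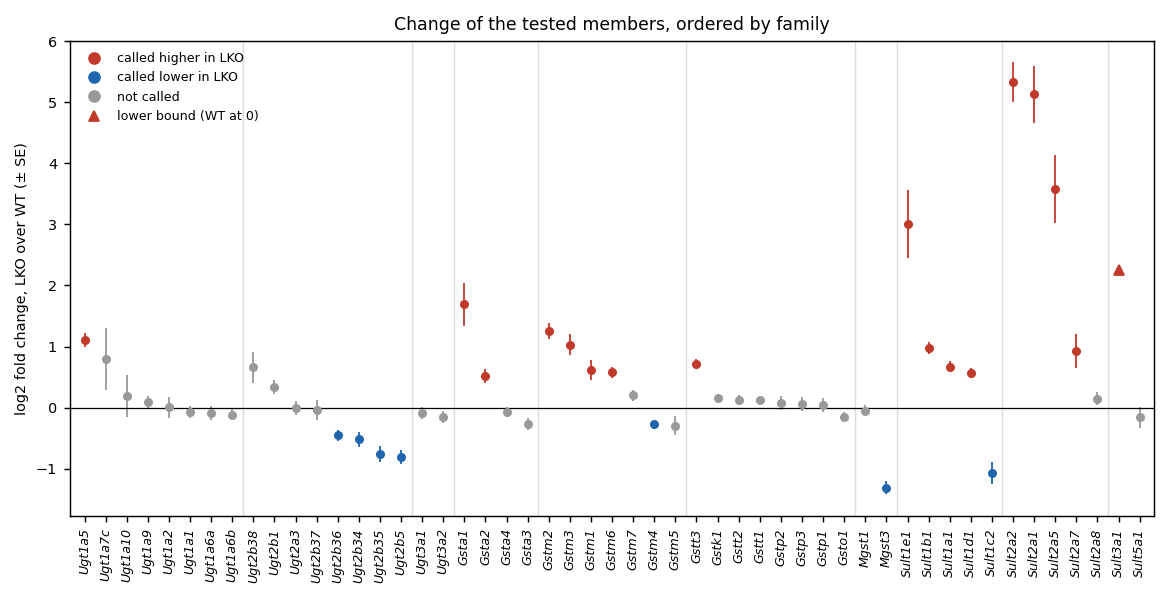
Log2 fold change of each of the 51 tested members, JMJD1C-LKO over WT, with its standard error, ordered by family and separated by grey lines. Red points were called higher and blue points lower in edgeR's test, grey points were not called, and the triangle is the lower bound for Sult3a1, which had no counts in either WT pool. The SULT genes at the right reach the largest rises, whereas 4 UGT2 genes were called lower.

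The SULT2 genes sulfate bile acids and hydroxysteroids. Among them 3 near-identical neighbours went from under 1 CPM in WT to between 1.09 and 27.0 CPM in LKO. Sult2a2 measured 0.543 and 0.507 CPM in the WT pools and 14.9 and 27.0 CPM in the LKO pools, a 40.3-fold rise (log2 fold change 5.33 ± 0.32, adjusted p = 1.88e-05). Sult2a1, the bile acid and DHEA sulfotransferase, measured 0.467 and 0.228 CPM in WT and 7.29 and 17.1 CPM in LKO (5.13 ± 0.47, adjusted p = 0.000144). For both genes LKO pool 2 was higher than LKO pool 1, and both LKO pools stood far above WT.

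Sult2a5 rested on few counts in WT, 1.66 and 9.63 estimated counts against 53.6 and 93.7 in LKO (log2 fold change 3.58 ± 0.56, adjusted p = 0.00191). These genes share long stretches: 62.3% of the 50-base words of the Sult2a2 transcript, 33.1% of Sult2a1 and 34.6% of Sult2a5 also occur in other genes, so that reads could be split among them. Summed as 1 unit, Sult2a1, Sult2a2 and Sult2a5 rose from 1.04 and 0.920 CPM to 23.3 and 45.8 CPM (log2 fold change 5.14 ± 0.33, adjusted p = 2.67e-05). The sum does not settle reads shared with genes outside these 3.

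Sult2a8, a bile acid sulfotransferase of mouse liver, was the main SULT2 transcript in both genotypes. Its level was 287 and 282 TPM (a scale per transcript length, which allows genes to be compared) in WT and 336 and 281 TPM in LKO, which overlapped, and it was not called (log2 fold change 0.15 ± 0.11, adjusted p = 0.344), except without LKO pool 2 (0.30, adjusted p = 0.0232). Sult2a7 lay at 1.25 and 1.36 TPM in WT and at 2.61 and 2.28 TPM in LKO, and its rise (0.93 ± 0.28, adjusted p = 0.0344) was lost when any of WT pool 1, WT pool 2 or LKO pool 1 was left out (adjusted p = 0.196, 0.168 and 0.0863) and in DESeq2 (adjusted p = 0.0863). All SULT2 genes summed to 290 and 285 TPM in WT and to 385 and 378 TPM in LKO. These 5 genes lie on chromosome 7, in chr7:13623967-14493023 (GRCm38.p6).

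The SULT1 genes sulfate phenols, thyroid hormone, catecholamines and estrogen, and all 5 members changed. Sult1a1, the main phenol sulfotransferase of liver, measured 372 and 337 CPM in WT and 538 and 590 CPM in LKO (1.59-fold higher, log2 fold change 0.67 ± 0.09, adjusted p = 0.000925). Sult1d1, which sulfates catecholamines, rose from 106 and 103 to 163 and 148 CPM (0.57 ± 0.08, adjusted p = 0.00139). Sult1b1, which sulfates thyroid hormone, rose from 9.99 and 10.3 to 20.3 and 19.5 CPM (0.97 ± 0.10, adjusted p = 0.000210). In each of these genes the 2 pools of a genotype lay close together and the genotypes were well apart.

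Sult1e1, the estrogen sulfotransferase, had 3 and 7 counts in the WT pools and 49 and 33 in the LKO pools (log2 fold change 3.01 ± 0.56, adjusted p = 0.00419). It was low in all libraries, and the call was lost without WT pool 1 (adjusted p = 0.0583). Sult1c2 was the only SULT to fall in this test, from 7.002 and 7.09 to 3.93 and 2.79 CPM (−1.07 ± 0.19, adjusted p = 0.00316). Summed over the family, SULT1 RNA came to 588 and 550 TPM in WT and 827 and 924 TPM in LKO.

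Sult3a1, an amine sulfotransferase known to be higher in female than in male mouse liver, had no counts in either WT pool and 11 and 18 counts in the LKO pools. Taking 3 counts per library as the limit that a count of 0 allows, it was at least 4.76-fold higher in LKO (adjusted p = 0.00615). That call was lost without WT pool 1 (adjusted p = 0.0563), without WT pool 2 (adjusted p = 0.0594), and without LKO pool 2 the gene was too low to be tested. Sult5a1 was not called at 6.67 and 4.98 CPM in WT and 5.28 and 5.17 CPM in LKO. Sult4a1, known from brain, and Sult6b1 had at most 7.44 counts in any library. Counting intervals and such limits cover counting error only.

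**Figure D2:**
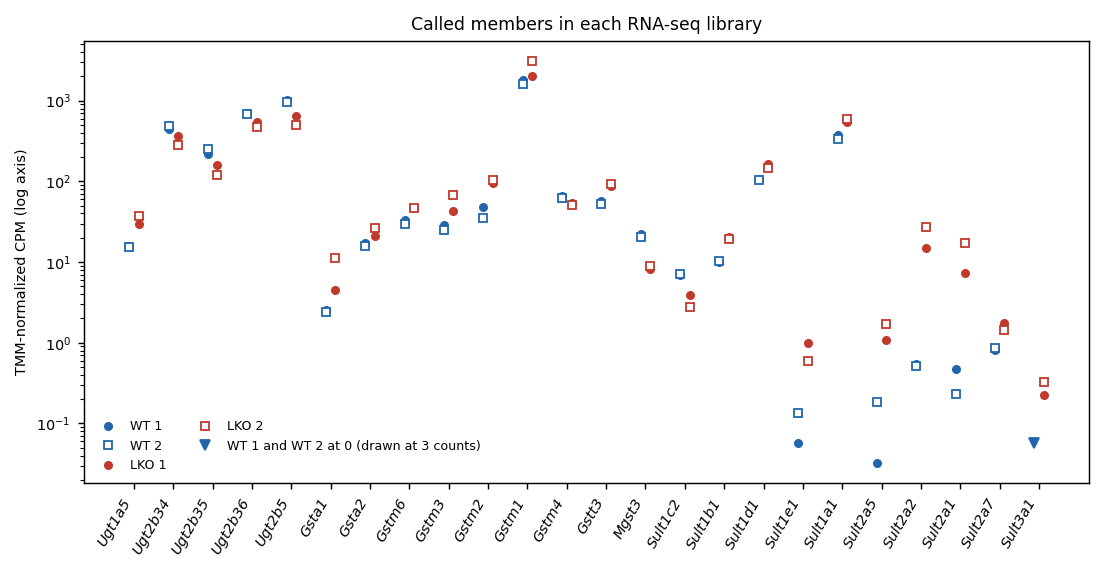
TMM-normalized CPM, on a log axis, of the 24 called members in each RNA-seq library, WT in blue and JMJD1C-LKO in red, with filled circles for pool 1 and open squares for pool 2. The triangle marks 3 counts per library for Sult3a1, which had none in WT. In every gene shown both LKO pools lie on the same side of both WT pools, and the SULT2 genes rise from under 1 CPM.

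Among the GSTs, 4 of the 7 mu-class genes rose. The class lies as 1 cluster, with its members next to each other in chr3:107895854-108044859, and 4 of the 5 neighbours Gstm7, Gstm6, Gstm3, Gstm2 and Gstm1 were called higher, while Gstm5 and Gstm4 at the ends had log2 fold changes below 0. The fifth, Gstm7, was called higher without LKO pool 2 (0.30, adjusted p = 0.0441). Gstm2 measured 48.1 and 35.5 CPM in WT and 95.7 and 104 CPM in LKO (2.38-fold higher, log2 fold change 1.25 ± 0.13, adjusted p = 0.000238). Gstm6 rose from 33.4 and 29.4 to 46.8 and 46.8 CPM (0.58 ± 0.09, adjusted p = 0.00168). Both changes were larger than the spread between pools.

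Gstm3 measured 29.1 and 24.7 CPM in WT and 42.8 and 67.0 CPM in LKO (1.03 ± 0.18, adjusted p = 0.00298), and lost its call without WT pool 2 (adjusted p = 0.0533). Gstm1, the most abundant mu-class transcript, measured 1781 and 1590 CPM in WT and 2033 and 3118 CPM in LKO (0.61 ± 0.17, adjusted p = 0.0233). Most of this difference came from LKO pool 2, and without that pool the log2 fold change was 0.27 (adjusted p = 0.0636). The call of Gstm1 was also lost without WT pool 1 or WT pool 2 (adjusted p = 0.0869 and 0.185). DESeq2 did not call it either (adjusted p = 0.149). Gstm1 and Gstm3 share some words, and their sum was called (0.62 ± 0.17, adjusted p = 0.0216).

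Gstm4 fell by 0.27 on the log2 scale, from 65.0 and 61.9 to 53.6 and 51.5 CPM (adjusted p = 0.0276), and was not called without WT pool 1, WT pool 2 or LKO pool 2 (adjusted p = 0.239, 0.135 and 0.0569). Because Gstm1 dominates, the mu-class sum of 2646 and 2403 TPM in WT and 2992 and 4625 TPM in LKO follows LKO pool 2.

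**Figure D3:**
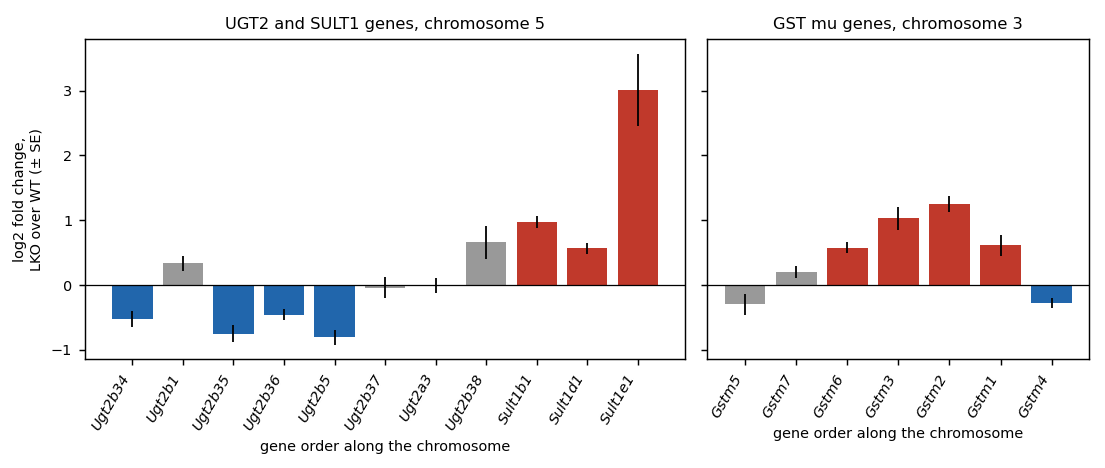
Log2 fold change (JMJD1C-LKO over WT, bars, with standard errors) of tested genes in their order along chromosome 5 (UGT2 and SULT1 genes, left) and chromosome 3 (GST mu genes, right). Red bars were called higher, blue bars lower and grey bars were not called. On chromosome 5, 4 UGT2 genes are lower and the 3 neighbouring SULT1 genes are higher, and on chromosome 3 the 4 higher genes are adjacent.

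The alpha class conjugates lipid peroxidation products and mycotoxin epoxides. Its main members were not called: Gsta3 measured 1330 and 1392 TPM in WT and 1171 and 1049 TPM in LKO (log2 fold change −0.27 ± 0.10, adjusted p = 0.0647), and Gsta4 measured 118 and 113 TPM in WT and 100.1 and 115 TPM in LKO. Gsta3 was, however, called lower in DESeq2 (adjusted p = 0.0380), with the replicate block (adjusted p = 0.0412) and without LKO pool 1 (log2 fold change −0.39, adjusted p = 0.00475). The minor members Gsta1 and Gsta2 rose. Gsta1 went from 2.54 and 2.41 to 4.57 and 11.4 CPM (1.69 ± 0.35, adjusted p = 0.00736), and Gsta2 from 17.3 and 16.003 to 21.3 and 26.4 CPM (0.52 ± 0.11, adjusted p = 0.00941), with LKO pool 2 the higher in both.

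Of the Gsta1 words 91.3% are shared with other genes, and summed with Gsta2 the pair rose from 19.9 and 18.4 to 25.9 and 37.8 CPM (0.74 ± 0.15, adjusted p = 0.00690). Most of the shared Gsta1 words, 84.4% of all its words, occur in Gm3776, which is not in that sum, so the sum does not settle reads shared with it. Both calls were lost without WT pool 1 (Gsta1 adjusted p = 0.0564, Gsta2 adjusted p = 0.0576) and without WT pool 2 (Gsta1 adjusted p = 0.0766, Gsta2 adjusted p = 0.119).

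In the other soluble classes only the theta gene Gstt3 was called, at 57.6 and 52.5 CPM in WT and 87.4 and 92.6 CPM in LKO (1.64-fold higher, log2 fold change 0.71 ± 0.08, adjusted p = 0.000442). Its neighbours Gstt1 and Gstt2, in the same cluster on chromosome 10, had log2 fold changes of 0.12 and 0.12 and were not called. The pi-class genes Gstp1 and Gstp2 rank among the most abundant members. Gstp1 stood at 2346 and 2134 TPM in WT and 2445 and 2071 TPM in LKO, and Gstp2 at 1005 and 825 TPM in WT and 992 and 907 TPM in LKO. They share 68.6% and 67.9% of their words, and their sum was not called (0.05 ± 0.11, adjusted p = 0.765). Neither Gstk1, the kappa-class transferase of mitochondria and peroxisomes, nor Gsto1, which reduces dehydroascorbate, was called (log2 fold changes 0.15 ± 0.08 and −0.15 ± 0.08).

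The microsomal transferases held the most abundant member, Mgst1, and the fall with the smallest p, that of Mgst3. Mgst1, an abundant enzyme of the endoplasmic reticulum and outer mitochondrial membrane, stood at 4648 and 4530 TPM in WT and 4495 and 4213 TPM in LKO and was not called (−0.05 ± 0.09). Mgst3, which has glutathione peroxidase activity towards lipid hydroperoxides, measured 22.0 and 20.3 CPM in WT and 8.18 and 8.85 CPM in LKO (2.48-fold lower, log2 fold change −1.31 ± 0.10, adjusted p = 6.56e-05). The pools of each genotype differed little, and the call held with each library left out and in DESeq2.

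**Figure D4:**
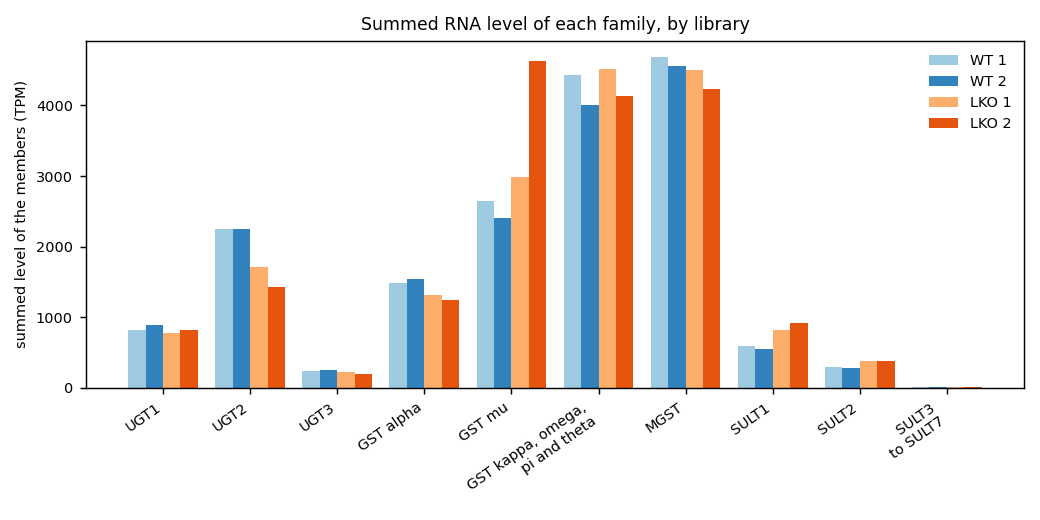
Summed level of the members of each family in TPM (bars from 0), with 1 bar for each WT and JMJD1C-LKO library. The UGT2 sum is lower in both LKO pools, the SULT1 and SULT2 sums are higher in both, and the tall GST mu bar is that of LKO pool 2.

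The UGT2 genes, which glucuronidate steroids, bile acids and drugs, were lower in part. Of 8 tested members 4 fell in edgeR's test and the other 4 were not called, and the family sum of 2254 and 2249 TPM in WT was 1716 and 1435 TPM in LKO. Ugt2b5, the most abundant UGT, measured 1030 and 963 CPM in WT and 638 and 502 CPM in LKO (1.75-fold lower, log2 fold change −0.81 ± 0.11, adjusted p = 0.00119). Ugt2b36 measured 711 and 694 CPM in WT and 547 and 477 CPM in LKO (−0.46 ± 0.09, adjusted p = 0.00599). For both genes all LKO values lay below all WT values, with LKO pool 2 the lower.

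Ugt2b35 fell from 220 and 249.7 to 159.9 and 119 CPM (−0.76 ± 0.13, adjusted p = 0.00316), and Ugt2b34 from 445 and 485 to 370.2 and 279 CPM (−0.52 ± 0.12, adjusted p = 0.0136). The calls of Ugt2b34 and Ugt2b36 were lost without WT pool 1 (adjusted p = 0.0601 and 0.0715), and those of Ugt2b34, Ugt2b35 and Ugt2b36 without WT pool 2 (adjusted p = 0.130, 0.0522 and 0.0622), whereas that of Ugt2b5 held. As Ugt2b5 shares 40.9% of its words, mostly with Ugt2b38, the sum with Ugt2b37 and Ugt2b38 was tested too and fell (−0.76 ± 0.12, adjusted p = 0.00170). Ugt2b1, at 238 and 227 CPM in WT and 331 and 256 CPM in LKO, was not called (0.33 ± 0.11, adjusted p = 0.0559), but it was called higher in DESeq2 (adjusted p = 0.0294), with the replicate number as a block (adjusted p = 0.0130) and without LKO pool 2 (log2 fold change 0.51, adjusted p = 0.00153). Ugt2b38 was also called higher with the block (0.58, adjusted p = 0.00497) and without LKO pool 2 (1.10, adjusted p = 3.75e-05). Ugt2a3 was not called (−0.01 ± 0.11).

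Ugt2b5 and Ugt2b36 are neighbours on the minus strand of chromosome 5 and fell together, so the 100 bases before their RefSeq starts (GRCm38.p6, read on the minus strand) are set side by side, at chr5:87140341-87140440 and chr5:87092556-87092655. Aligned, they were identical at 74 of 104 columns (71.2%). Capitals mark the longest run in common, of 24 bases, which starts 28 bases before the start of Ugt2b5 and 31 before that of Ugt2b36. Other UGT2 genes, called or not, were not aligned, so whether they hold the run is not known here. Its part in the falls was not tested.
Ugt2b5: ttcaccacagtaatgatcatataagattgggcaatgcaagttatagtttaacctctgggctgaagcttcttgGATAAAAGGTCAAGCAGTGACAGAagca
Ugt2b36: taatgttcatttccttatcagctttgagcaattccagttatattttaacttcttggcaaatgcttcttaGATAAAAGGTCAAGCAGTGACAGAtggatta

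The UGT1 genes are first exons of 1 locus, chr1:88055411-88220002, spliced to common last exons, so that 70.8% to 86.4% of the words of each transcript are shared. Summed, the locus measured 1278 and 1376 CPM in WT and 1276 and 1277 CPM in LKO and was not called (log2 fold change −0.06 ± 0.08, adjusted p = 0.652). Ugt1a6b, a UGT of simple phenols, was the most abundant at 501 and 507 TPM in WT and 422 and 493 TPM in LKO, followed by Ugt1a1, the bilirubin UGT, at 228 and 278 TPM in WT and 242 and 231 TPM in LKO. Neither was called. Only Ugt1a5 was, at 15.7 and 15.2 CPM in WT and 29.5 and 37.1 CPM in LKO (1.11 ± 0.11, adjusted p = 0.000238), of whose words 75.4% are shared with other UGT1 transcripts. Ugt3a1 and Ugt3a2, which transfer other sugars, were not called (−0.09 ± 0.09 and −0.15 ± 0.10), but without LKO pool 1 Ugt3a2 was called lower (−0.30, adjusted p = 0.0149), as was Ugt1a6a (−0.30, adjusted p = 0.0265).

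Of the members, 48 have an entry in the RefSeq table of promoters, with 58 windows of 250 bases before a start in all, which were searched on both strands for 4 short motifs. TTCNNNGAA, the core of STAT sites, lay in 4 of the 58 windows, those of Gsta1, Gstm6, Sult3a1 and Ugt1a6a. It lay in 7.02% of all 32851 windows, a similar share. Ugt1a6a was not called in edgeR's test. The first 3 were called higher and are shown for that reason, each as 250 bases on the gene's strand with the match in capitals. They lie at chr9:78230419-78230668 (plus strand), chr3:107943399-107943648 (minus, before 1 of several starts of Gstm6) and chr10:33857472-33857721 (plus). The ATAC-seq summit of Gstm6 in WT fasted liver 1, at chr3:107943804, was at −70 from another start. The Gstm6 window lies downstream of that other start, so its match is not upstream of every start of the gene.
Gsta1: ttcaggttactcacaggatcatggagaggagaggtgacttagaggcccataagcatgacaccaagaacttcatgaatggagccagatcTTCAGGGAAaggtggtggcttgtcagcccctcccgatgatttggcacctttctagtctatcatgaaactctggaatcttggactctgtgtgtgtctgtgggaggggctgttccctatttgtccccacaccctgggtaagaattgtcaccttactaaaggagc
Gstm6: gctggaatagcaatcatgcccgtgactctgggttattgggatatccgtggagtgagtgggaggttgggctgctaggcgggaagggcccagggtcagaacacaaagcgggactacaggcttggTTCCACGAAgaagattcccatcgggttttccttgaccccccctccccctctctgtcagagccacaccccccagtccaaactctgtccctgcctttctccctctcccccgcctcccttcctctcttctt
Sult3a1: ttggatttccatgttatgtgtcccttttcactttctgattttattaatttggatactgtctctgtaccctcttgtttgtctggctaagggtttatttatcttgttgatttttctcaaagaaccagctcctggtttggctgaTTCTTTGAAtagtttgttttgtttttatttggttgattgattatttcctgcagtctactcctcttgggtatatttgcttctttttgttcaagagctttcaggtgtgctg

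The antioxidant element core TGACNNNGC lay in the windows of Gsta3, Gstm5, Gstm7 and Mgst1, none of them called, and in 10.2% of all windows. The AHR core GCGTG was in 10 of the 58 and in 28.2% of all, and the E-box CACGTG in none of the 58 and in 6.02% of all. Of the 9 genes with GCGTG, 5 were called higher (Gsta2, Gstm1, Sult1b1, Sult1d1 and Ugt1a5) and 1 lower (Mgst3). A match in the letters does not show that a factor binds. The genes without an entry were Gsta4, Gstt2, Sult2a1, Sult2a2, Sult2a7, Sult4a1, Ugt1a6b and Ugt3a2.

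RNA of some genes that supply the conjugated groups differed, read against the 28.0% of all genes called. Of 7 genes listed for UDP-glucuronate supply, 4 were lower and 1 was higher. The higher one was Gusb (0.36 ± 0.09), a beta-glucuronidase, which removes glucuronic acid and does not supply it. Ugdh, which makes UDP-glucuronate, measured 195 and 173 CPM in WT and 115 and 77.0 CPM in LKO (−0.94 ± 0.16, adjusted p = 0.00283), and Slc35d1, which carries it into the endoplasmic reticulum, 207 and 192 CPM in WT and 135 and 106 CPM in LKO (−0.72 ± 0.11). Slc35b1 (−0.39 ± 0.09) and Entpd5 (−0.34 ± 0.08) were also on the list and lower, but their part in the supply of UDP-glucuronate was not examined.

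Of 18 genes of glutathione synthesis and turnover, 4 were lower and 3 higher. Gclc and Gclm, the subunits of the rate-limiting glutamate-cysteine ligase, fell from 403 and 385 to 173 and 121.7 CPM (−1.42 ± 0.14, adjusted p = 0.000210) and from 237 and 230.3 to 136 and 106 CPM (−0.95 ± 0.11, adjusted p = 0.000523). Cth, which makes cysteine, rose (0.94 ± 0.11). Among 10 genes of sulfate activation 3 were called, a share near that of all genes. The PAPS synthase Papss2 rose from 109 and 113 to 165 and 152 CPM (0.51 ± 0.08, adjusted p = 0.00192), and the minor Papss1 fell (−0.52 ± 0.14). Arsa, an arylsulfatase that removes sulfate and does not supply it, rose (0.34 ± 0.08), and 7 were not called.

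Genes outside the families that share known regulators moved in both directions. Counts in these and the following lists stand against 28.0% of all genes called, 14.6% higher and 13.4% lower. Of 17 NRF2 targets 8 were lower and 1 was higher, led by Gclc, Ephx1 (−0.84 ± 0.08) and Aox1 (−0.99 ± 0.10). Gclc, Gclm and Ugdh, among the 8, were already counted in the lists above. Of 17 CAR and PXR targets 3 were higher and 5 lower. Cyp2b10, the standard CAR target, rose from 1.99 and 2.01 to 11.9 and 22.7 CPM (3.12 ± 0.28, adjusted p = 0.000141), whereas Tsku (−1.28 ± 0.14) and Alas1 (−0.60 ± 0.08) fell.

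Of 6 tested AHR targets Cyp1a2 alone was called, higher (0.37 ± 0.09). Of the 17 receptors and factors 2 were higher, Cebpb (1.05 ± 0.13) and Mafk (0.46 ± 0.10), and 7 were lower, among them Nr1h4, the bile acid receptor FXR (−0.65 ± 0.09), and Foxa2 (−0.60 ± 0.11). Nr1i3, which encodes CAR, fell too, from 228 and 226 to 173 and 185 CPM (−0.34 ± 0.08, adjusted p = 0.0115). Among 14 transporters of conjugates 3 were called, a share below that of all genes. Abcc1 (1.28 ± 0.25), Abcc3 (0.44 ± 0.09) and Slco1a4 (0.68 ± 0.14) were higher and none was lower.

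Other conjugating enzymes were mixed. Of 15 genes of methyl, acetyl and acyl conjugation 6 were lower, such as Tpmt (−0.64 ± 0.12) and Inmt (−0.44 ± 0.08), and 2 were higher, led by the nicotinamide methyltransferase Nnmt (1.75 ± 0.15). Of 10 other genes related to GSTs 3 were higher, Ptges2, Clic1 and Alox5ap, and Eef1g and Ptges were lower. Several SULT2 and SULT3 genes are known to be higher in female mouse liver. Of 18 other genes known to be higher in females 9 were lower in LKO and 2 higher, with Cyp2c69 at 277 and 309.7 CPM in WT and 42.3 and 38.4 CPM in LKO, Hao2 lower (−3.29 ± 0.17) and Cyp17a1 higher (1.41 ± 0.11).

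Of 17 genes known to be higher in males 7 were higher and 1 was lower, led by Elovl3 (2.72 ± 0.21), C6 (1.59 ± 0.16) and Selenbp2 (1.003 ± 0.17). Among 5 sex-chromosome genes Kdm5d was lower (−0.63 ± 0.17) and the others were not called. RNA of the Y-chromosome genes Ddx3y and Eif2s3y was present in every pool of both genotypes. Ddx3y measured 55.9 and 52.3 CPM in WT and 51.8 and 48.001 CPM in LKO. Eif2s3y measured 38.7 and 38.4 CPM in WT and 37.99 and 36.2 CPM in LKO. Xist was low in every pool, at 0.9404 and 0.984 CPM in WT and 0.5245 and 1.37 CPM in LKO. Of 15 periportal genes 9 were higher, such as Sds (1.64 ± 0.13), Pck1 (1.33 ± 0.13) and Hal (0.60 ± 0.08), and of 15 pericentral genes 6 were higher and 2 lower, Rhbg rising (1.47 ± 0.15), Oat rising (0.995 ± 0.12) and Tbx3 falling (−0.92 ± 0.13). The lists were not tested as sets, and their part in the changes of the members was not tested.

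In ATAC-seq few members had a summit within 1000 bp of a RefSeq start. WT fasted liver 1 had one at 11 members (18.8% of all 15189 genes with a start), and WT fasted liver 2 at 1 (8.62%). WT refed liver 1 had one at 1 member (15.5%) and WT refed liver 2 at 3 members (9.73%). The LKO refed livers had none at any of the 56 members (6.2% and 1.2% of all genes). In both fasted livers the only such member was Mgst3 (6.84% of all genes), in both refed WT livers it was Gstk1 (7.46%), and in both LKO livers there was none (0.527%).

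Counted in bases from the start, the Mgst3 summit lay at −407 in fasted liver 1, at −230 in fasted liver 2 and at −198 in WT refed liver 2. That of Gstk1 lay at +61 in fasted liver 1 and at +149 and +93 in WT livers after refeeding, and that of Mgst1 at −233 in fasted liver 1 and −194 in WT refed liver 2. In a liver of either replicate, 11 members had a summit when fasted (20.6% of all genes), 3 when refed (17.8%) and none in LKO (6.87%). With 2 against 2 livers an exact two-sided permutation test cannot go below p = 0.333, no test of the presence of summits was run, and the LKO lists were the shortest.

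The 250 bases before the starts of Mgst3 (chr1:167393842-167394091, minus strand) and Mgst1 (chr6:138140277-138140526, plus strand) are shown, since these were the only members with an upstream ATAC-seq summit in both a fasted and a refed liver. Capitals mark the 11 bases around the summit of WT refed liver 2.
Mgst3: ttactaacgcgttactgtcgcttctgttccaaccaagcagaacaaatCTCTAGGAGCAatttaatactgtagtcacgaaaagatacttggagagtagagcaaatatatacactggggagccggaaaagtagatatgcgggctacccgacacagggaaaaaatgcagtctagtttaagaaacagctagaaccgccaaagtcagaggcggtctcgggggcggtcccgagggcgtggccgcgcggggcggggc
Mgst1: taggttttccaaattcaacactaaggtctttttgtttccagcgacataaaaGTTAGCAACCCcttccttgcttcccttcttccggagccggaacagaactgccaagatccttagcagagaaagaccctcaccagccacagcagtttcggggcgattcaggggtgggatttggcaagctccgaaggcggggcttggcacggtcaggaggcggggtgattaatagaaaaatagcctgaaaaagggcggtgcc

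H3K9me2 summits lay at more members, and mostly at those with much RNA. In fasted liver 1 there was one at 15 members (47.4% of all genes), in fasted liver 2 at 27 (68.4%), and at 15 in both (47.1%). Refed liver 2 had one at 18 members (56.7%), whereas refed liver 1, with the short list, had none (0.119%), so that no member had one in both refed livers (0.0658%). In 1 or both livers the shares of all genes were 68.7% fasted and 56.8% refed. Of the 15 members with a summit in both fasted livers, 11 also had one in refed liver 2, and Gsta3, Gstk1, Ugt2b1 and Ugt2b34 did not. Refed liver 2 alone had one at Ugt1a1, Ugt2b5 and Ugt2b35.

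Of 21 members with a mean level of 100 TPM or more in refed WT liver, 14 (66.67%) had a summit in both fasted livers, against 1 of 35 (2.857%) below that level, which was Sult1d1 at 75.3 TPM. Over all genes of the table the shares were 82.92% and 44.16%. In 1 or both fasted livers 18 (85.71%) and 9 (25.71%) of these members had a summit, against 95.58% and 66.5% of all genes. In refed liver 2 the numbers were 15 (71.43%) and 3 (8.571%), against 90.48% and 53.93% of all genes. The limit of 100 TPM was not among the planned settings. The SULT2 genes that rose most, all under 100 TPM, had none, and Sult2a8 had one in all 3 livers with long lists. Among 17 members called higher 3 had a summit in both fasted livers, Gstm1, Sult1a1 and Sult1d1, and among 7 called lower 2 had, Ugt2b34 and Ugt2b36. RNA of fasted and H3K9me2 of LKO livers were not analysed here.

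Of 63 member summits 60 lay downstream of the start, at a median of 295 bases after it. Mgst1, the most abundant member, had the highest ranked summit of all members in each liver with a long list, at ranks 398 of 7690 and 217 of 13456 in the fasted livers and 320 of 9929 in refed liver 2, each 298 to 508 bases after the start. Ugt2b36 had its summits 818 and 898 bases after the start in the fasted livers and 690 after in refed liver 2, and Sult1a1 had them 243, 336 and 323 bases after it. The other members with a summit in both fasted livers were Gstp1, Gstt2, Ugt1a6b, Ugt2a3 and Ugt3a2.

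**Figure D5:**
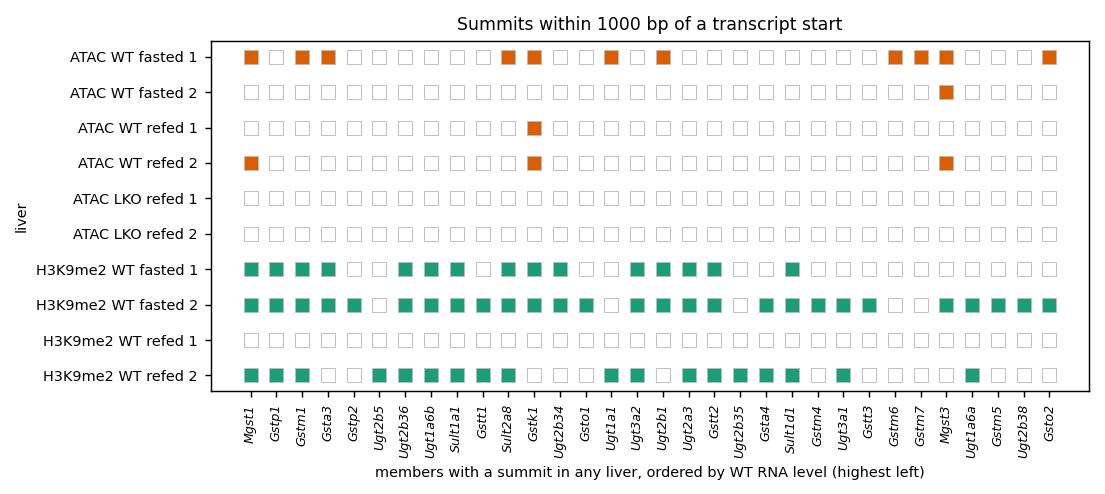
Members with any summit within 1000 bp of a RefSeq start (columns, ordered by WT RNA level from the left) in each liver (rows). Filled squares mark a summit, orange for ATAC-seq and green for H3K9me2, and open squares none. WT fasted liver 1 holds most of the ATAC-seq squares and the LKO livers none, and H3K9me2 refed liver 1 is empty while the other 3 livers share many members at the left.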

How the data were processed

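The RNA-seq table deposited by the authors holds unscaled estimated counts of RefSeq transcripts from pooled RNA. The notes of the submitters name HISAT2 and Partek with mm10, but the counting step is not given in the sources used here. For ATAC-seq and H3K9me2 ChIP-seq the authors called peaks in each liver with MACS2 2.1.1, ChIP-seq against the input of the same replicate, and deposited summits with the −log10 q-value, from which the depth of each liver is unknown. A deposited table of the authors' own p-values and fold changes was not used.

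Transcript counts were summed per gene, rounded and tested with edgeR 4.0.16 (R 4.3.3), using filterByExpr, TMM normalization, the quasi-likelihood F test and Benjamini-Hochberg adjustment over 14151 genes. The common dispersion was 0.0083. TPM was computed from counts and RefSeq lengths (GRCm38.p6). A gene had a summit when one lay within 1000 bp of any of its RefSeq starts. The code was tested on simulated data. P-values measure only the spread between these pools, which may be technical. DESeq2 1.42.0, other filters, scalings, windows and leaving out each sample were tried. Named were the called members of each family (at most 5 by p), its 2 most abundant, those with a summit in both livers of a group, and at most 3 called genes of each companion list. Any other gene was named after its values were seen. Members and lists were chosen with earlier results of these data known.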

Additional observations from a re-analysis of the deposited data

How the results depend on the processing

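The counts of called members (24, with 17 higher and 7 lower) were the same with DESeq2 size factors, without a filter and with counts not rounded, and became 23 with DESeq2 (15 higher, 8 lower), 21 with the most abundant transcript of each gene (15 higher, 6 lower), and 19 with near-identical members summed (12 higher, 7 lower), the last chosen after seeing the data. Leaving out 1 library gave 14 to 26 called, 11 to 19 higher and 3 to 10 lower, the low counts coming from leaving out a WT pool. For SULT genes these were 6 to 9 higher and 1 lower each time. Samples with the same number did not deviate together (correlation of WT 1 with LKO 1 of −0.0046), and with the replicate number as a block 27 members were called, 19 higher and 8 lower. Of 253 values of single called genes under alternatives, 226 kept direction and call, 27 kept direction but lost the call and 0 reversed. Members called under an alternative alone are named in the report. DESeq2 gave no adjusted p for Sult3a1. The summit counts moved more. Members with an ATAC-seq summit in both fasted livers numbered 1, but 0 for scores of at least 5 or for the 825 strongest summits of each liver, 11 when 1 liver sufficed, and 1 to 11 with a liver left out. In both refed WT livers the number was 1, then 0, 0, 3 and 1 to 3 under the same changes, and in the LKO livers 0 throughout. Members with an H3K9me2 summit in both fasted livers numbered 15, but 7 within 500 bp, 1 for the 1297 strongest summits, 27 when 1 liver sufficed and 15 to 27 with a liver left out, and in both refed livers 0, but 18 when 1 liver sufficed and 0 to 18 with a liver left out. The causes were not tested. The summit lists do not give the depth of each liver, and 2 samples a group limit every comparison.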
